A study of Xenopus laevis with 4 samples.

Results

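The genes described here encode the machinery that carries cargo along the cilium and guards its base. They were taken as every probe set with 1 platform gene symbol that named an intraflagellar transport (IFT) subunit, a Bardet-Biedl syndrome (BBS) protein, a transition zone protein of the tectonic, B9, MKS or NPHP families, or 1 of a short list of associated factors. The rule used names only and no measured value. It found 28 gene symbols on 41 probe sets, of 11303 symbols and 32539 probe sets on the array apart from controls. No symbol starting with nphp was found, which does not cover genes of that family under other names. In the allotetraploid frog Xenopus laevis most genes can have a homeologous pair of copies, written with L and S. The module held 21 L copies, 6 S copies and arl6, which carries no suffix. ift20 was the only member with both copies among the probe sets that had 1 symbol.

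The arrays measured total RNA of animal caps, the explanted presumptive ectoderm that forms the ciliated larval skin. Embryos were injected at the 2-cell stage with 1 of 3 synthetic RNAs. Caps were cut at stage 9/10, cultured on fibronectin in Danilchik's medium with 0.1% BSA, and harvested at what would be stage 12 in the embryo. ICD was hybridised to 2 arrays, DBM to 1 and HMM to 1. By common usage ICD stands for the Notch intracellular domain, an active form that needs no ligand. DBM by the same usage is a DNA-binding mutant of rbpj, or Su(H), the transcription factor through which Notch acts, and it blocks signaling. The labels do not spell out HMM. Uninjected caps were not among the arrays analysed here, so each difference is between injected groups. The series title asks which early Notch targets bear on the fate of multiciliate cells. Nothing in the labels says that the ICD arrays came from separate clutches, so the p-values reflect the spread of these particular arrays alone, and that spread may be technical.

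Cilia are built and maintained by IFT trains, which move along the microtubule doublets beneath the ciliary membrane. Kinesin-2 drives the trains outwards and dynein-2 brings them back. The IFT-B complex is the backbone of outward transport, IFT-A is needed for return transport and for the entry of membrane proteins, and the BBSome is an adaptor that moves membrane proteins out of the cilium. The transition zone at the base holds a gate, built in part by the MKS module, that limits which proteins pass. In the frog epidermis, multiciliate cells make many motile cilia each. Many other vertebrate cells make a single primary cilium with the same machinery.

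The array labelled ICD replicate 1 stood apart in its signals. Its 2% trimmed mean signal was 150.7, while the other arrays had 376.8 to 408.9, and its poly-A spike-ins averaged 31.8% of those elsewhere. Its hybridisation spike-ins were not low, at 110.3% of those elsewhere. Its gapdh signal was 1.93 times as high at the 3' as at the 5' end. The ratio was 1.30 on ICD replicate 2, 1.29 on DBM and 1.61 on HMM. All signals below were rescaled to a common trimmed mean. The correlation across tested probe sets was 0.96 between the ICD arrays and 0.95 between DBM and HMM. ICD replicate 1 correlated at 0.94 with HMM and 0.91 with DBM, and ICD replicate 2 at 0.90 with HMM and 0.93 with DBM. This pairing could enter both DBM minus HMM and the gap within the ICD pair, and its cause was not tested. The epidermal markers krt12.4, grhl1, grhl3, dlx3, tfap2a and tp63 had summed signals of 41750 and 32480 on the ICD arrays, 49704 on the DBM array and 41788 on the HMM array. The sums do not show that single markers were alike. As given below, krt12.4.S and grhl3.S were lower with ICD and both tp63.S probe sets were higher.

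Transport and transition zone genes were mostly lower in ICD caps than in DBM and HMM caps. Of the 41 probe sets, 36 passed the filter on low signals, for 26 genes. Of these 36, 33 had a negative difference between ICD and the mean of DBM and HMM, while 51.6% of all tested probe sets had one. Both ICD arrays lay below both other arrays in 30 of 36, against 22.8% of all tested probe sets, and above both in 1 of 36, against 19.3%. The median difference was -0.66 on the log2(signal + 17.99) scale, and the median of all tested probe sets was -0.01. The filter used the mean of all arrays, and 3 of the 36 (b9d2.L and 1 probe set each of mks1.L and tctn1.L) had ICD means below it and passed through the DBM and HMM arrays. Over all 41 probe sets, with no filter, 36 differences were negative, both ICD arrays were lowest in 32 and the median was -0.65. Of all 32539 probe sets with no filter, 15927 had a negative difference. Both ICD arrays were lowest in 6353 of them, and their median was 0.008. The single arrays gave like medians, -0.77 with ICD replicate 1 alone and -0.64 with ICD replicate 2 alone. In whole explants harvested at stage 12, fewer cells of the ciliated lineage and less of these RNAs per cell cannot be told apart.

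Of the 36 probe sets, 3 fell past the adjusted threshold of 0.05, for ift52.L, bbs12.L and arl3.S, and 0 rose. Among all 19523 tested probe sets, 3.93% passed in this comparison, 2.04% lower and 1.9% higher. A further 33 member probe sets did not pass, with differences between -1.11 and 0.48 and adjusted p between 0.0911 and 0.984. At an unadjusted p under 0.05, 16 of the 36 were lower in ICD caps, against 8.27% of all tested probe sets, and 0 were higher, against 5.87%. Of the 16, 2 (b9d2.L and a tctn1.L probe set) passed the filter through the DBM and HMM arrays and lend no support. The standard error of a single difference was 0.21 to 0.41. Leaving out the DBM array ended all 3 calls, with adjusted p of 0.213 for ift52.L, 0.113 for bbs12.L and 0.288 for arl3.S. Leaving out the HMM array ended those of ift52.L and arl3.S, at 0.0677 and 0.0656. Over 13 alternative settings bbs12.L passed in 8, ift52.L in 5 and arl3.S in 3. Among these, the passes of bbs12.L and ift52.L with the 60th percentile filter lend no support. Their ICD means were under that filter, so they passed it through the DBM and HMM arrays. No member passed without rescaling of the arrays or with DBM and HMM treated as 1 group.

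**Figure D1:**
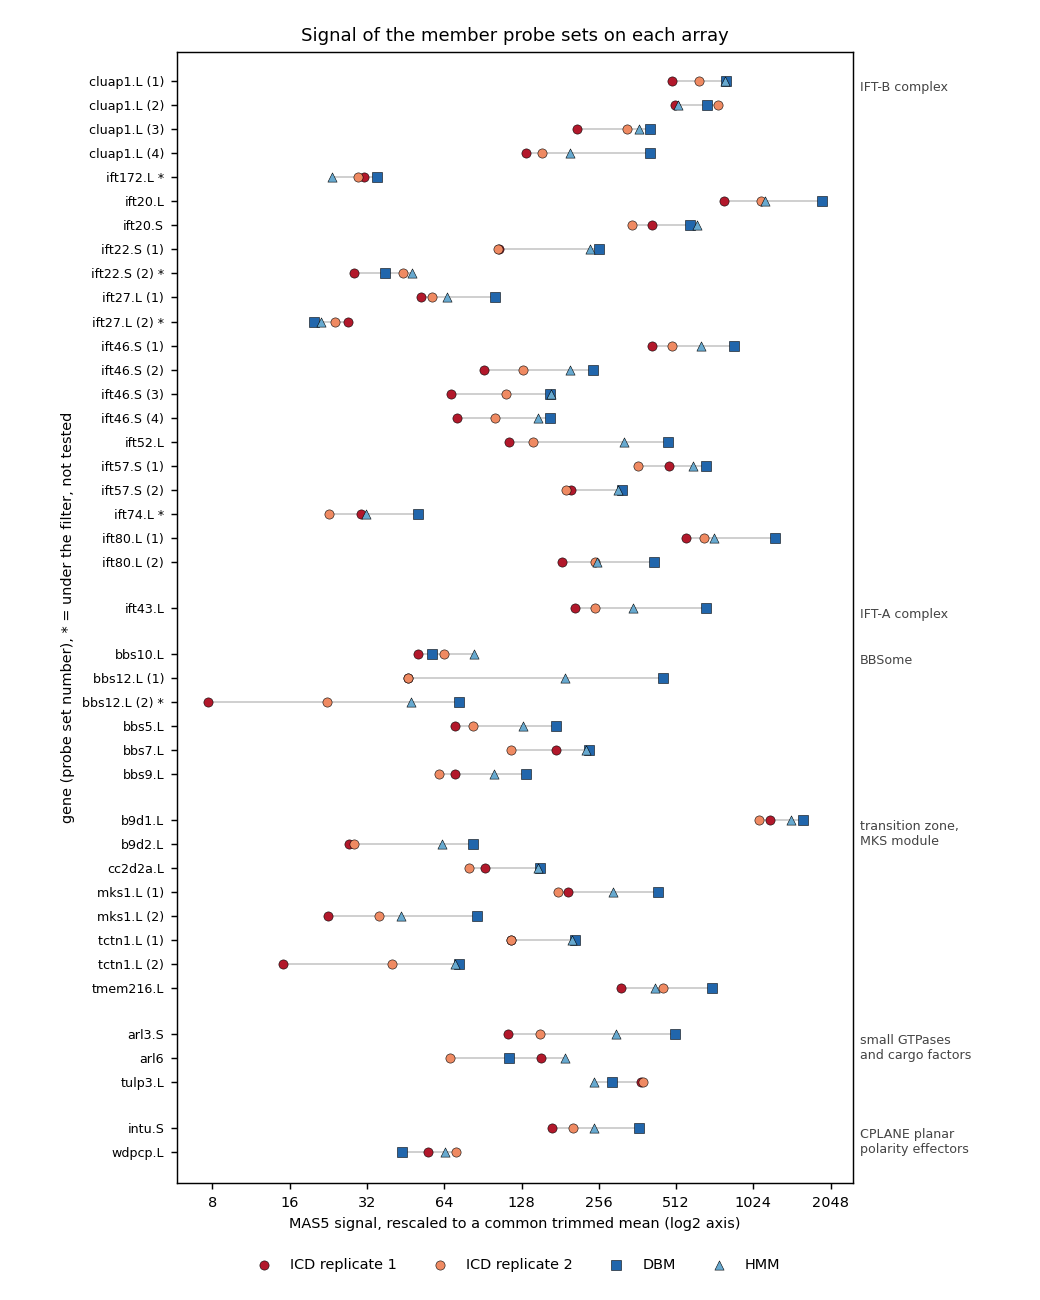
Rescaled MAS5 signal of each of the 41 member probe sets (rows, grouped by role) on a log axis, with 1 point for each ICD, DBM and HMM array; an asterisk marks the 5 probe sets left out of the test. In 30 of the 36 tested rows both ICD points lie left of the DBM and HMM points, and the gap is widest for bbs12.L, with 46.4 and 46.2 on the ICD arrays, 456 on DBM and 189.5 on HMM.

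The IFT-B complex supplied 21 probe sets for 11 genes, of which 17 probe sets for 9 genes were tested. One fell, 0 rose and 16 did not pass, and the median difference of the 17 was -0.64. At an unadjusted p under 0.05, 8 were lower in ICD caps and 0 were higher, against 8.27% and 5.87% of all tested probe sets. Several of the 17 belong to the same gene, so they are not separate evidence. The probe set that fell belonged to ift52.L, a core subunit that holds the complex together. Its signal was 115 and 142 on the ICD arrays, 477 on the DBM array and 321 on the HMM array. The ICD arrays were well below both others and close to each other. The difference from the mean of DBM and HMM was -1.49 ± 0.28 (SE), 2.81-fold lower, with limma adjusted p = 0.0394.

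ift22.S, a small GTPase-like subunit, had the next largest difference in the complex. Its signal was 105 and 104 on the ICD arrays, 257 on DBM and 237 on HMM, a difference of -1.11 ± 0.30 with adjusted p = 0.115. The ICD arrays were nearly equal and the other arrays also, so the groups were apart, but the difference did not pass. A second ift22.S probe set was too dim to test, at 28.4 and 44.2 on the ICD arrays, 37.6 on DBM and 48.1 on HMM. There the ICD arrays straddled the DBM array.

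The L and S copies of ift20, whose product also travels with vesicles from the Golgi, could be set side by side. ift20.L had 785 and 1095 on the ICD arrays, 1896 on DBM and 1133 on HMM, a difference of -0.65 ± 0.24 with adjusted p = 0.270. ift20.S had 411 and 343 on the ICD arrays, 578 on DBM and 616 on HMM, a difference of -0.64 ± 0.24 with adjusted p = 0.260. Both copies had their ICD arrays lowest and neither passed the test. The copies differed in the order of the other arrays, with DBM far above HMM for ift20.L and slightly below it for ift20.S.

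The symbol cluap1.L (IFT38) had 4 probe sets, as had ift46.S, which in the green alga Chlamydomonas is needed to carry outer dynein arms. For ift46.S the 4 probe sets had differences between -0.90 and -0.70, and both ICD arrays were lowest in each. The largest of these, on a probe set shared between transcripts, had 91.4 and 130 on the ICD arrays, 242 on DBM and 198 on HMM, a difference of -0.90 ± 0.32 with adjusted p = 0.253. The cluap1.L probe sets did not move alike. One had 133 and 154 on the ICD arrays, 405 on DBM and 198 on HMM, a difference of -0.91 ± 0.29 with adjusted p = 0.185. Another had 506 and 746 on the ICD arrays, 673 on DBM and 519 on HMM, a difference of 0.06 ± 0.26 with adjusted p = 0.984. On that probe set the ICD arrays were at the 2 ends of the range and enclosed the other arrays. The remaining 2 had differences of -0.52 and -0.50.

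The other tested IFT-B probe sets were 2 for ift57.S, 2 for ift80.L and 1 for ift27.L, with differences between -0.62 and -0.46, and both ICD arrays lowest in each. ift57 and ift80 are peripheral subunits and ift27 is a Rab-like GTPase. Further probe sets for ift172.L, ift74.L and ift27.L had mean signals between 23.0 and 33.9 and were not tested. ift172 is the largest IFT-B subunit and ift74 a core coiled-coil subunit that helps to bind tubulin.

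The IFT-A complex was represented by a single gene, ift43.L, a small peripheral subunit. Its signal was 207 and 248 on the ICD arrays, 667 on the DBM array and 347 on the HMM array. The ICD arrays were the lowest, and HMM lay nearer to them than to DBM. The difference was -1.03 ± 0.26, 2.04-fold lower, with adjusted p = 0.0911, and so did not pass.

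Of the BBS genes, bbs5, bbs7 and bbs9 encode BBSome subunits, while bbs10 and bbs12 encode chaperonin-like proteins that help to assemble it. The group had 5 tested probe sets, with a median difference of -0.67, of which 1 fell, 0 rose and 4 did not pass. At an unadjusted p under 0.05, 2 were lower and 0 higher, against 8.27% and 5.87% of all tested probe sets. The probe set that fell was for bbs12.L, with 46.4 and 46.2 on the ICD arrays, 456 on DBM and 189.5 on HMM. The ICD arrays were nearly identical and far below both others. The difference was -2.29 ± 0.31, 4.88-fold lower, with adjusted p = 0.0126, the largest difference of any member. The second bbs12.L probe set was too dim to test, with 7.65 and 22.3 on the ICD arrays, 72.9 on DBM and 47.6 on HMM, which is the same order of the groups.

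The BBSome subunits had smaller differences, none past the threshold. bbs5.L, a lipid-binding subunit, had 70.2 and 82.9 on the ICD arrays, 175 on DBM and 129 on HMM, a difference of -0.84 ± 0.32 with adjusted p = 0.292. bbs9.L had 70.2 and 61.2 on the ICD arrays, 133 on DBM and 99.6 on HMM, a difference of -0.67 ± 0.32 with adjusted p = 0.441. bbs7.L, which like bbs9 encodes a beta-propeller subunit, had 175 and 117 on the ICD arrays, 234 on DBM and 228 on HMM, a difference of -0.63 ± 0.32 with adjusted p = 0.484. In these 3 genes both ICD arrays were lowest. The chaperonin-like gene bbs10.L had 50.7 and 63.7 on the ICD arrays, 57.2 on DBM and 83.7 on HMM, a difference of -0.22 ± 0.33 with adjusted p = 0.913. Here the DBM array lay between the ICD arrays, unlike bbs12.L.

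The MKS module of the transition zone had 8 tested probe sets for 6 genes, with a median difference of -0.75. None fell or rose past the adjusted threshold. At an unadjusted p under 0.05, 4 were lower and 0 higher, against 8.27% and 5.87% of all tested probe sets. Of those 4, b9d2.L and a tctn1.L probe set passed the filter through the DBM and HMM arrays, so they are described and lend no support. b9d2.L, which with b9d1 and mks1 encodes the B9-domain proteins of the gate, had 27.3 and 28.5 on the ICD arrays, 82.8 on DBM and 62.8 on HMM. The ICD arrays were nearly equal and below both others, with a difference of -0.97 ± 0.32 and adjusted p = 0.198. mks1.L had 194 and 177 on the ICD arrays, 435 on DBM and 291 on HMM, a difference of -0.88 ± 0.27 with adjusted p = 0.166. Its second probe set had 22.5 and 35.7 on the ICD arrays, 85.9 on DBM and 43.6 on HMM, a difference of -0.78 with adjusted p = 0.370. The order of the arrays' groups was the same on both mks1.L probe sets. The second also passed the filter through the DBM and HMM arrays, so this likeness lends no support. The median of -0.75 includes it, b9d2.L and that tctn1.L probe set.

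tctn1.L encodes tectonic, a protein of the same gate, and had 2 tested probe sets. One had 15.1 and 40.1 on the ICD arrays, 73.4 on DBM and 70.3 on HMM, a difference of -1.04 ± 0.39 with adjusted p = 0.273. The other had 116 on both ICD arrays, 206 on DBM and 201 on HMM, a difference of -0.72 with adjusted p = 0.346. DBM and HMM were close on both probe sets, and the ICD arrays lay below them. The dimmer of the 2 passed the filter through the DBM and HMM arrays, so its order lends no support. The remaining genes of the module were b9d1.L, cc2d2a.L, a C2-domain protein, and tmem216.L, a membrane protein, with differences of -0.42, -0.70 and -0.51. tmem216.L was the only 1 of the 8 in which an ICD array reached above another array, with 312 and 456 on the ICD arrays, 704 on DBM and 424 on HMM.

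**Figure D2:**
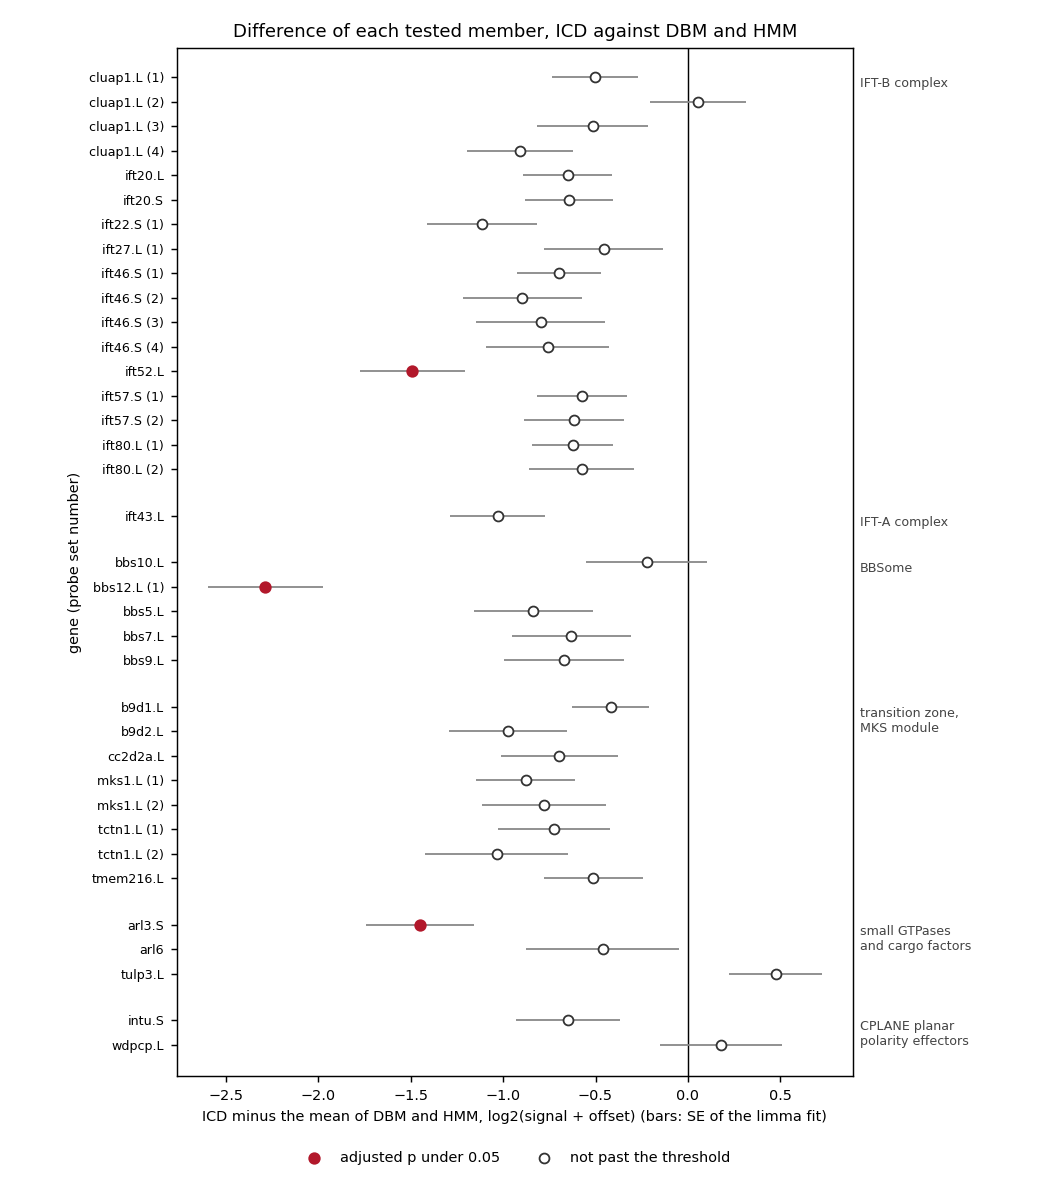
Difference between the mean of the 2 ICD arrays and the mean of DBM and HMM on the log2(signal + 17.99) scale for each of the 36 tested member probe sets, grouped by role, with bars of 1 standard error from limma. Of the 36 points, 33 lie left of 0, and the 3 past the adjusted threshold are bbs12.L at -2.29, ift52.L at -1.49 and arl3.S at -1.45.

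The small GTPases and cargo factors were 3 probe sets that did not move alike. arl3.S, a GTPase that releases lipid-modified cargo inside the cilium, had 114 and 151 on the ICD arrays, 506 on DBM and 298 on HMM. Both ICD arrays were well below the others. The difference was -1.45 ± 0.29, 2.73-fold lower, with adjusted p = 0.0462. arl6 (BBS3), the GTPase that brings the BBSome to membranes, had 152 and 67.1 on the ICD arrays, 114 on DBM and 189.5 on HMM. The ICD arrays lay on either side of DBM, with a difference of -0.46 ± 0.41 and adjusted p = 0.794. tulp3.L, which carries membrane receptors into the cilium together with IFT-A, had 375 and 379.7 on the ICD arrays, 289 on DBM and 246 on HMM. Among the 36 tested probe sets it was the only one with both ICD arrays above both others, and the untested ift27.L probe set had that order too. Its difference of 0.48 ± 0.25 had adjusted p = 0.50 and did not pass, and without rescaling of the arrays its sign turned, to -0.21.

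The CPLANE proteins are planar polarity effectors that help to recruit IFT-A trains to the base of the cilium. intu.S had 168 and 203 on the ICD arrays, 365 on DBM and 246 on HMM, a difference of -0.65 ± 0.28 with adjusted p = 0.373. wdpcp.L had 55.1 and 71.1 on the ICD arrays, 43.8 on DBM and 64.3 on HMM, a difference of 0.18 ± 0.33 with adjusted p = 0.941. The ICD arrays were lowest for intu.S and overlapped the other arrays for wdpcp.L.

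ICD was also set against each other RNA alone. These comparisons share the ICD arrays with each other and with the one above, so they are not independent of it. Against DBM, 34 of 36 differences were negative, against 48.4% of all tested probe sets, with a median of -0.86, and the median of all tested probe sets was 0.02. One member fell, bbs12.L, with a difference of -2.88 ± 0.38 and limma adjusted p = 0.0187, while 2.32% of all tested probe sets passed in this comparison, 1.48% lower and 0.84% higher. The other 35 did not pass, with arl3.S at -1.81 ± 0.36 (adjusted p = 0.0582), ift52.L at -1.76 ± 0.35 (adjusted p = 0.0595) and ift43.L at -1.49 ± 0.31 (adjusted p = 0.0714) nearest to the threshold. With quantile normalization or rescaling to a common median arl3.S and ift52.L passed as well, and ift43.L with the common median. At an unadjusted p under 0.05, 17 members were lower, against 7.19% of all tested probe sets, and 0 were higher, against 4.47%. The 17 include b9d2.L and the dimmer mks1.L probe set, which passed the filter through the other arrays and lend no support.

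Against HMM, 34 of 36 differences were again negative, against 54.9% of all tested probe sets, with a median of -0.54, and the median of all tested probe sets was -0.05. No member passed limma's adjusted threshold, while 1.74% of all tested probe sets did, 0.507% lower and 1.23% higher. At an unadjusted p under 0.05, 5 members were lower, against 6.77% of all tested probe sets, and 0 were higher, against 5.73%. bbs12.L came nearest, at -1.69 ± 0.38 with adjusted p = 0.102, and fell past the threshold when arrays were rescaled to a common median instead (adjusted p = 0.0437). ift52.L was at -1.22 ± 0.35 with adjusted p = 0.188, and arl3.S at -1.08 ± 0.36 with adjusted p = 0.260.

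DBM and HMM have 1 array each, so their difference is given without a test. DBM was above HMM in 31 of the 36 tested members, against 47.6% of all tested probe sets. The median difference, DBM minus HMM, was 0.29, and that of all tested probe sets was -0.02. DBM was above HMM by over 1.5-fold in 9 of 36, against 11.3% of all tested probe sets, and below it by over 1.5-fold in 1 of 36, against 11%. The 3 highest were bbs12.L at 1.19, the cluap1.L probe set with the largest ICD difference at 0.97 and ift43.L at 0.91. The 3 lowest were arl6 at -0.65, bbs10.L at -0.43 and wdpcp.L at -0.41. In 28 members the groups ran ICD lowest, HMM next and DBM highest. The share of all tested probe sets with this order was not computed, so the count is not read as particular to the members.

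The gap within the ICD pair gives a scale for these differences. Its median size over the 36 members was 0.25, while that of DBM minus HMM was 0.37, and DBM minus HMM was the larger in 23 of 36. The difference between ICD and the mean of DBM and HMM exceeded the gap within the ICD pair in 30 of 36. These sizes and counts were not computed over all tested probe sets, so they are not read as particular to the members. ICD replicate 1 was below ICD replicate 2 in 24 of 36, against 53.2% of all tested probe sets. ICD replicate 1 was also the array with the lowest trimmed mean and the highest 3' to 5' gapdh ratio. The part of RNA quality in the member values was not tested.

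**Figure D3:**
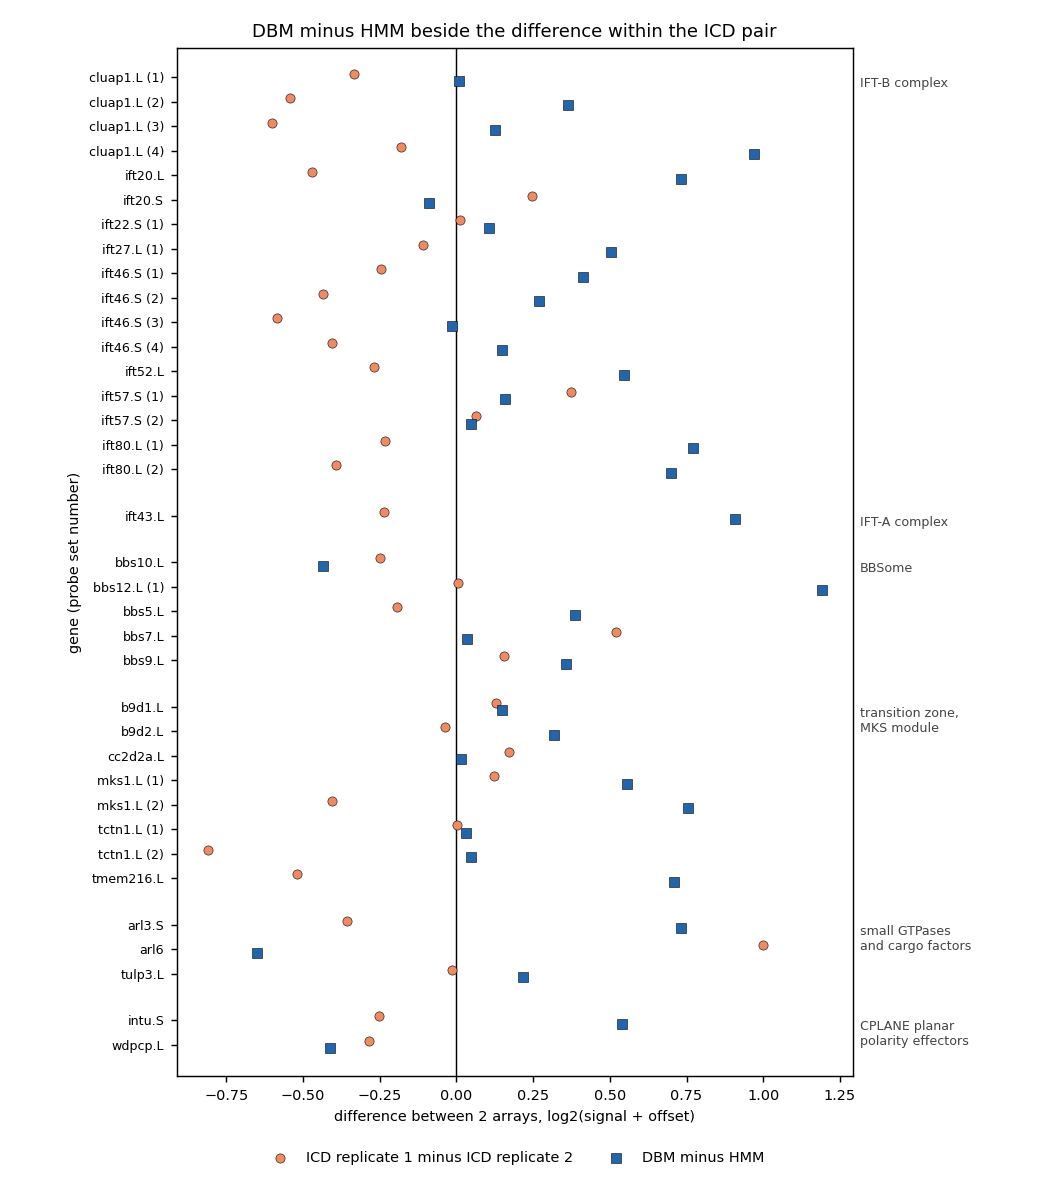
Squares give DBM minus HMM and circles ICD replicate 1 minus ICD replicate 2, both on the log2(signal + 17.99) scale, for each of the 36 tested member probe sets grouped by role. Squares lie right of 0 in 31 of 36 rows and reach 1.19 for bbs12.L, and the widest circle is arl6 at 1.00.

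A wider list of 57 ciliary transport and transition zone genes outside the module held the motors, further IFT and BBSome subunits and the distal appendages. Of these names 24 were found on the array, and 26 probe sets for 22 genes were tested. Their median difference between ICD and the mean of DBM and HMM was -0.53, 3 fell, 0 rose and 23 did not pass. Of all tested probe sets, 2.04% fell and 1.9% rose in this comparison. Both ICD arrays were lowest in 18 of 26, against 22.8% of all tested probe sets. With no filter they were lowest in 21 of 34, against 6353 of all 32539 probe sets, and the list's median was -0.48. dync2i2.L, an intermediate chain of the dynein-2 motor, had 7.44 and 20.7 on the ICD arrays, 131 on DBM and 79.5 on HMM, a difference of -1.94 ± 0.36 with adjusted p = 0.0349. cep83.L, a distal appendage protein that docks centrioles at the membrane, had 138 and 145 on the ICD arrays, 636 on DBM and 341 on HMM, a difference of -1.60 ± 0.27 with adjusted p = 0.0251. tmem107.L, a membrane protein of the MKS module, had 85.1 and 104 on the ICD arrays, 439 on DBM and 225 on HMM, a difference of -1.57 ± 0.30 with adjusted p = 0.0396. In all 3 the ICD arrays were far below both others and DBM was the highest array. dync2i2.L passed the filter through the DBM and HMM arrays, as did ttc21a.L and a rab8a.S probe set, so its call lends no support. The same holds with a common median, where dync2i2.L and ttc21a.L both passed the threshold. Without the DBM array 0 of the wider list passed, as with DBM and HMM as 1 group or without rescaling. cep83.L alone passed without the HMM array or without the filter, and 5 passed with a common median.

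Against DBM alone, 3 of these 26 fell, against 1.48% of all tested probe sets. Their differences were -2.04 for cep83.L, -2.03 for tmem107.L and -1.69 for hspb11.L, with limma adjusted p of 0.0326, 0.0466 and 0.0497. hspb11 is IFT25, the partner of ift27 in the IFT-B complex, and hspb11.L had 210.4 and 274 on the ICD arrays, 815 on DBM and 423 on HMM. Against HMM alone 0 passed, with 6 lower and 0 higher at an unadjusted p under 0.05. Shares of all tested probe sets at that level were 6.77% lower and 5.73% higher. The 6 include dync2i2.L, ttc21a.L and a rab8a.S probe set. These passed the filter through the DBM and HMM arrays and lend no support. Without the HMM array the calls of tmem107.L and hspb11.L against DBM ended as well, at adjusted p of 0.0516 and 0.0546. kif3b.S, a kinesin-2 motor subunit, had 434 and 473 on the ICD arrays, 813 on DBM and 608 on HMM, a difference of -0.61 with adjusted p = 0.249.

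Genes particular to motile cilia were examined on the same scale. Of 16 tested probe sets of a motile axoneme list (tektins, radial spoke and dynein arm proteins and others), 8 fell, 0 rose and 8 did not pass, with a median of -1.46. Of the 8, 4 (cfap52.S, tekt2.S and 2 spag6.L probe sets) had ICD means under the filter. They passed it through the DBM and HMM arrays, so their calls lend no support, here or in the settings below. For this list and those below, the shares of all tested probe sets past the threshold were 2.04% lower and 1.9% higher. Without the DBM array 3 fell, with DBM and HMM as 1 group 5 fell, and 0 fell in that fit with ICD replicate 1 or 2 left out, or without rescaling. Those that fell without the DBM array or as 1 group included cfap52.S and tekt2.S, and as 1 group also a spag6.L probe set. DBM minus HMM had a median of 1.09 in the axoneme list. Of 7 tested probe sets for the regulators of ciliated cells foxj1, foxn4, rfx2, mcidas and ccno, all 7 fell, with a median of -3.46. Of the 7, 1 (mcidas.S) had an ICD mean under the filter and passed it through the DBM and HMM arrays. Its calls, here or in the settings below, lend no support. Without the DBM array, or with DBM and HMM as 1 group, 5 fell. As 1 group, 4 fell without ICD replicate 1 and 2 without ICD replicate 2, and 0 fell without rescaling. The module's median over the same arrays was -0.66, and no test was made of the difference between the lists. With no filter the medians were -1.02 for the motile axoneme, -3.09 for the regulators and -0.65 for the module. Markers of other cell types moved with the same arrays, and their part in the members' differences was not tested. Summed signals of the multiciliate markers were 1021 and 1129 on the ICD arrays, 16860 on DBM and 8547 on HMM, and all 7 tested probe sets fell, most of them the same probe sets as those of the regulators.

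Ionocyte markers summed to 245 and 286 on the ICD arrays, 10893 on DBM and 6088 on HMM, and all 7 tested probe sets fell. The goblet cell marker itln1.L was at 640 and 740 on the ICD arrays, 11390 on DBM and 5003 on HMM, and fell. Neural markers summed to 6170 and 11590 on the ICD arrays, 2882 on DBM and 1937 on HMM, and 3 of 10 tested probe sets rose. Endoderm markers summed to 411 and 378 on the ICD arrays, 1502 on DBM and 1583 on HMM, and 4 of 8 fell. Mesoderm markers were at 148 and 389 on the ICD arrays, 520 on DBM and 258 on HMM, and 0 of 3 passed. At an unadjusted p under 0.05, 1 of the 3 was lower, against 8.27% of all tested probe sets. ICD means were under the filter for 5 of the 7 ionocyte and 5 of the 8 endoderm probe sets. The same held for 2 of the 3 mesoderm and 2 of the 7 multiciliate probe sets. All of these passed the filter through the other arrays. Calls among them, 5 for ionocytes, 2 for endoderm and 2 for multiciliate cells, lend no support. Nor does the mesoderm probe set that was lower at an unadjusted p under 0.05. The epidermal markers had 11 of 15 probe sets not past the threshold. krt12.4.S and grhl3.S fell, each with a difference of -1.44, and both tp63.S probe sets rose, with differences of 2.67 and 2.10. None of these markers was listed at 0 on any array.

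**Figure D4:**
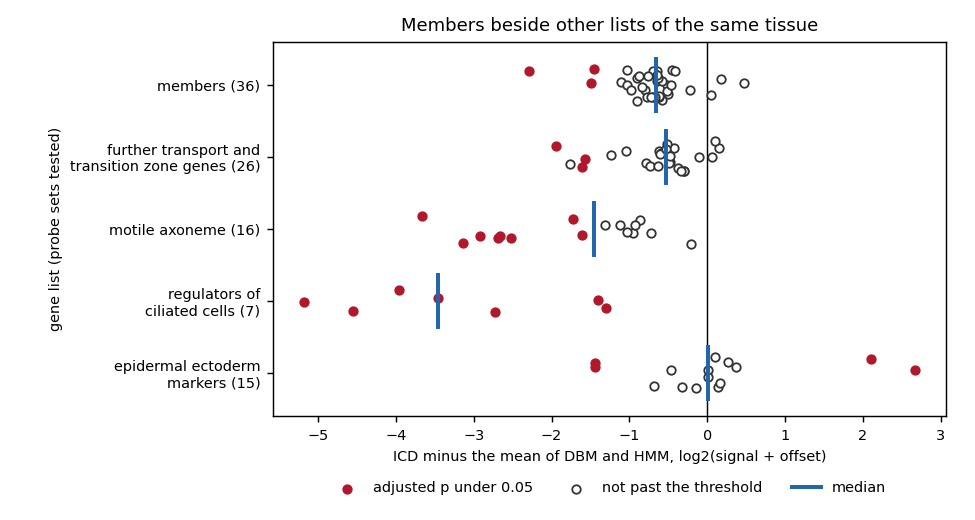
Difference between ICD and the mean of DBM and HMM on the log2(signal + 17.99) scale for each tested probe set of the 36 members, 26 further transport and transition zone probe sets, 16 of the motile axoneme, 7 of the regulators of ciliated cells and 15 epidermal markers, with a line at each median. The medians are -0.66 for the members, -0.53 for the further genes, -1.46 for the motile axoneme, -3.46 for the regulators and 0.01 for the epidermal markers.

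Genes with several probe sets show how far one annotation can be read. Of the 9 members with more than 1 probe set, 6 had more than 1 tested. In ift46.S, ift57.S, ift80.L, mks1.L and tctn1.L every tested probe set was negative, and only in cluap1.L did the signs differ. Counted by gene, 23 of 26 tested genes had all tested probe sets below 0, tulp3.L and wdpcp.L were above 0, and cluap1.L was mixed. Among the 23, b9d2.L passed the filter through the DBM and HMM arrays and lends no support. The same holds for 1 probe set each of mks1.L and tctn1.L. The share over all tested genes was not computed. Probe sets of one gene share its transcript, so they are not separate evidence for it, and MAS5 probe sets can also catch RNA of the other homeolog. The 5 probe sets left out for low signal had means between 23.0 and 39.6, and 3 of their 5 differences were negative.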

How the data were processed

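The authors deposited 1 MAS5 signal, a linear intensity, for each probe set on each array, per the submitters' processing notes. The MAS5 version and any scaling target are not given in the sources used here. No detection call was used. Of 32635 probe sets, 96 were controls. The platform annotation gave 15495 of the rest 1 symbol, 279 several and 16765 none, and the last 2 kinds are unnamed here.

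Each array was rescaled to the mean of the arrays' 2% trimmed means, because these differed. An offset of 17.99, which is 0.25 of the median signal after rescaling (71.95), was added before taking log2, so folds of dim genes are understated. Probe sets with a mean under 41.37, the 40th percentile, were left out, and 19523 were tested. limma 3.58.1 in R 4.3.3 fitted 1 mean per injected RNA (lmFit, eBayes with intensity trend, two-sided, Benjamini-Hochberg at 0.05 over all tested probe sets). The fit had 1 residual and 5.82 prior degrees of freedom, so the lone DBM and HMM arrays were assumed to vary like the ICD pair. The number of arrays limits the precision. The pipeline was run on simulated data in which every array had the spread of the ICD pair. That setting could not test whether the DBM and HMM arrays vary like that pair. Figures used matplotlib 3.10.9 in Python 3.11.15.

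Full values were given for member probe sets past the threshold in any comparison, up to 4 per role with the largest difference, the 3 highest and 3 lowest in DBM minus HMM, both copies of ift20, and positive members among the top 3. Other values named were chosen after they were seen. The members, lists and tests were chosen with earlier results of these data known. No sequences or coordinates were used here. Alternatives tried were quantile normalization, rescaling to a common median, no rescaling, other offsets and filters, no intensity trend, DBM and HMM as 1 group, and each array left out.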

Additional observations from a re-analysis of the deposited data

How the results depend on the processing

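No paired analysis was possible because the groups share fewer than 2 replicate numbers. Members past the threshold against the mean of DBM and HMM numbered 3, and 0 without rescaling, 1 without the filter (bbs12.L), 1 without the intensity trend (bbs12.L), 0 with DBM and HMM as 1 group, and 0 to 1 without DBM or HMM. With DBM and HMM as 1 group and either ICD array left out it was 0. Against DBM the main count was 1, and it was 3 with quantile normalization, 4 with a common median and 0 without rescaling. Against HMM it was 0, and 1 with a common median. Counts over all probe sets against the mean of both were 768, and 0 without rescaling, 1156 with a common median, 411 as 1 group, 337 to 427 without DBM or HMM, and 150 and 62 as 1 group without ICD replicate 1 and 2. Against DBM they were 452, and 0, 823, 220 and 223 without rescaling, with a common median, without the filter and without the trend. Against HMM they were 340, and 0, 739, 224 and 170 under the same settings. Without rescaling the median of all probe sets itself shifts to -0.67, which moves every value. The median of the members against both was -0.66, and -1.33 without rescaling, -0.53 with the larger offset (1 median signal), -0.86 to -0.54 without HMM or DBM, and -0.77 as 1 group without ICD replicate 2. Against DBM it was -1.48 without rescaling and -0.59 with the larger offset. Against HMM it was -1.17 without rescaling, -0.48 with a common median, -0.59 with the smaller offset and -0.45 with the larger. DBM minus HMM had medians of 0.42 without rescaling, 0.21 with the larger offset and 0.39 with the 60th percentile filter. Of 658 values of named members under alternatives, 613 kept direction and side of the threshold, 24 no longer passed, 6 newly passed and 15 reversed. The reversals were bbs10.L against DBM (0.051 with quantiles, 0.043 with a common median) and wdpcp.L against HMM (0.011 and 0.015). Without rescaling they were tulp3.L (-0.21 against both, -0.36 against DBM, -0.050 against HMM), wdpcp.L (-0.33 and -0.15 against both and DBM) and cluap1.L (-0.64 and -0.41 against both and HMM). Leaving out arrays left wdpcp.L at -0.027 without DBM and 0.38 without HMM, and cluap1.L at 0.24 and -0.13. As 1 group without ICD replicate 2, arl6 was at 0.038 and cluap1.L at -0.22. The same alternatives, added for the wider transport list after the data had been seen, moved its 3 calls to 0 without rescaling or as 1 group, 1 without the filter and 5 with a common median. Its 3 calls against DBM became 0 without rescaling, the filter or the trend, 1 with the 60th percentile filter, and 5 with quantiles or a common median. Each count of 5 includes dync2i2.L and ttc21a.L. These had ICD means under the filter and lend no support. The cause of these changes was not tested beyond the settings themselves.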

Other observations

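Some transport genes differed more between the ICD arrays than between the groups, and were chosen after their values were seen. kif3a.L, a kinesin-2 motor subunit, had 245 and 109 on the ICD arrays, 102 on DBM and 206 on HMM. unc119b.S, which binds lipid-modified cargo, had 195 and 91.2 on the ICD arrays, 184 on DBM and 206 on HMM. arl6 had 152 and 67.1 on the ICD arrays, 114 on DBM and 189.5 on HMM. In these 3 genes ICD replicate 1 was the higher ICD array, unlike most members. Outside that pattern, ttc21a.L, a paralog of the IFT-A gene ttc21b, had 18.2 and 43.0 on the ICD arrays, 200.3 on DBM and 98.4 on HMM. Its difference from the mean of DBM and HMM was -1.76, and ICD replicate 1 minus replicate 2 was -0.75. It did not pass, with limma adjusted p = 0.0591, but did with quantile normalization, a common median or the larger offset, and its ICD mean was under the filter.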
